A study of Mus musculus with 3 samples.

Results

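The autophagy machinery genes are 36 mouse genes that build, load and regulate autophagosomes, among 55536 annotated genes measured. They were chosen by name for their known roles and not by a measured value, though with earlier results of these data known. All 36 were found by identifier in the GENCODE M21 annotation of build mm10. The study sequenced polyA RNA from activated Treg, or regulatory T cells, a CD4 lineage defined by Foxp3 that limits immune reactions. These were mouse primary cells, labelled male and 3 weeks of age. There was 1 group of 3 libraries, numbered 1 to 3 as technical replicates of 1 biological replicate. The mode of activation, any pooling of animals and the step at which the libraries separate are not stated. Every SD is therefore a spread between libraries, and no comparison of conditions was possible.

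Macroautophagy encloses cytoplasm in a double membrane that fuses with the lysosome. A kinase complex starts it, a lipid kinase complex marks the site, lipid transfer proteins enlarge the membrane, and ubiquitin-like conjugation ties the small ATG8 proteins to it, where cargo receptors dock. In mice, loss of Atg7 or Atg5 in Treg has been reported to weaken the survival and identity of these cells.

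Gene reads numbered 30362256, 28419259 and 31959927 in libraries 1, 2 and 3. All 8 Treg markers of the list used were detected, with a summed level of 4775, 4781 and 4845 TPM (transcript abundance scaled for length and library total). Markers of other cells were present. The 7 erythroid genes found of 8 listed summed to 14030, 1180 and 811 TPM in libraries 1, 2 and 3, above the Treg sum in library 1, and each was highest there. Of 5 monocyte and macrophage markers 4 were detected (103.8, 49.4 and 66.7 TPM summed), and of 5 B cell markers 4 (42.9, 40.2 and 67.7 TPM). None of the 5 dendritic and none of the 5 neutrophil markers reached 1 TPM in all libraries, and their sums stayed under 10 TPM. Of 4 CD8 and natural killer markers 3 were detected (28.5, 21.5 and 31.3 TPM). Elane of neutrophils and Ncr1 of natural killer cells were at 0 in all libraries. In bulk RNA, fewer cells of a type and less RNA per cell cannot be told apart.

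ATG8 proteins are made with a tail that ATG4 proteases trim to an exposed glycine, the residue that is then joined to lipid. The ends of the 5 coding sequences are shown because this is where the members differ in the tail that is removed. Each line gives the last 60 coding bases with the stop codon, from the principal transcript on the plus strand of mm10, with the last in-frame glycine codon (GGN) in capitals.

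Map1lc3a, chr2:155277578-155277637: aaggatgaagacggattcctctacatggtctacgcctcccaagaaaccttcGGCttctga
Map1lc3b, chr8:121596711-121596770: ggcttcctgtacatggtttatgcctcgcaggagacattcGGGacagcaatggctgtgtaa
Gabarap, chr11:69994465-69994524: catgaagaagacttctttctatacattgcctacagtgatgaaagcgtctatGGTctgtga
Gabarapl1, chr6:129541108-129541167: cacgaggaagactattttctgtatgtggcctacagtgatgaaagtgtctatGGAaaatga
Gabarapl2, chr8:111952346-111952405: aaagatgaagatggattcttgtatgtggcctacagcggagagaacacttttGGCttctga

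Map1lc3b has 5 codons after that glycine codon, and each of the others has 1. Over the whole coding sequence, Map1lc3a and Map1lc3b were 74.7% identical, and Gabarap and Gabarapl1 74.9%. Gabarapl2 was 63.1% identical to Gabarap and 64.5% to Gabarapl1. Between the LC3 and GABARAP branches identity was 50.4% to 55.5%. The longest run of bases shared by any pair was 17, so the 5 genes share no stretch as long as 50 bases of coding sequence.

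The ATG8 family held 3 of the 4 members above 200 TPM. Per library, in the order 1 to 3, Gabarap stood at 319, 302 and 352 TPM. Gabarapl2, also called GATE-16, had 248, 280.2 and 279 TPM. Map1lc3b, which encodes LC3B, had 276, 263 and 242 TPM. These values overlap between Gabarapl2 and Map1lc3b, while Gabarap was the highest of the 5 in each library. The log2 ratio of Gabarap to Map1lc3b was 0.32 ± 0.19 and that of Gabarap to Gabarapl2 was 0.27 ± 0.14 (SD, n = 3), both within 2 SD of 0. Map1lc3a and Gabarapl1 were far lower, with 11.8, 14.2 and 12.1 TPM for Map1lc3a and 14.8, 8.77 and 4.95 TPM for Gabarapl1. Map1lc3b exceeded Map1lc3a by 4.25 ± 0.16 on the log2 scale, and Gabarap exceeded Gabarapl1 by 5.06 ± 0.78 (SD, n = 3). Gabarapl1 was the most variable of the family, with 489.8 reads in library 1, 267 in library 2 and 195 in library 3.

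Across the 36 members, 33 were detected at 1 TPM or more in every library, against 48.1% of all 22028 protein-coding genes. The exceptions were Atg9b, Wipi1 and Atg4c. The median member had 33.1 TPM, against 1.17 TPM for all protein-coding genes and 30.05 TPM for the 10601 detected ones. The member median takes in Atg9b, Wipi1 and Atg4c, which were not detected. Among the 33 detected members the middle one by mean level was Atg16l1, with 39.7 TPM, above the 30.05 TPM of detected genes. Of all members, 12 were above 50 TPM and 10 below 20 TPM. Gabarap, Sqstm1, Gabarapl2 and Map1lc3b together made up 48.6% of the summed member level. Ordered by mean level, 5 of 35 neighbouring pairs differed beyond their spread, and the others did not. Map1lc3b exceeded Becn1 by 0.48 ± 0.09, Becn1 exceeded Rb1cc1 by 0.89 ± 0.14 and Rb1cc1 exceeded Atg4b by 0.40 ± 0.14 on the log2 scale (SD, n = 3). The other steps were from Atg10 to Map1lc3a and from Gabarapl1 to Optn. A step counted as past the spread if its log2((TPM + 1)/(TPM + 1)) had the same sign in each library and averaged more than 2 SD.

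**Figure D1:**
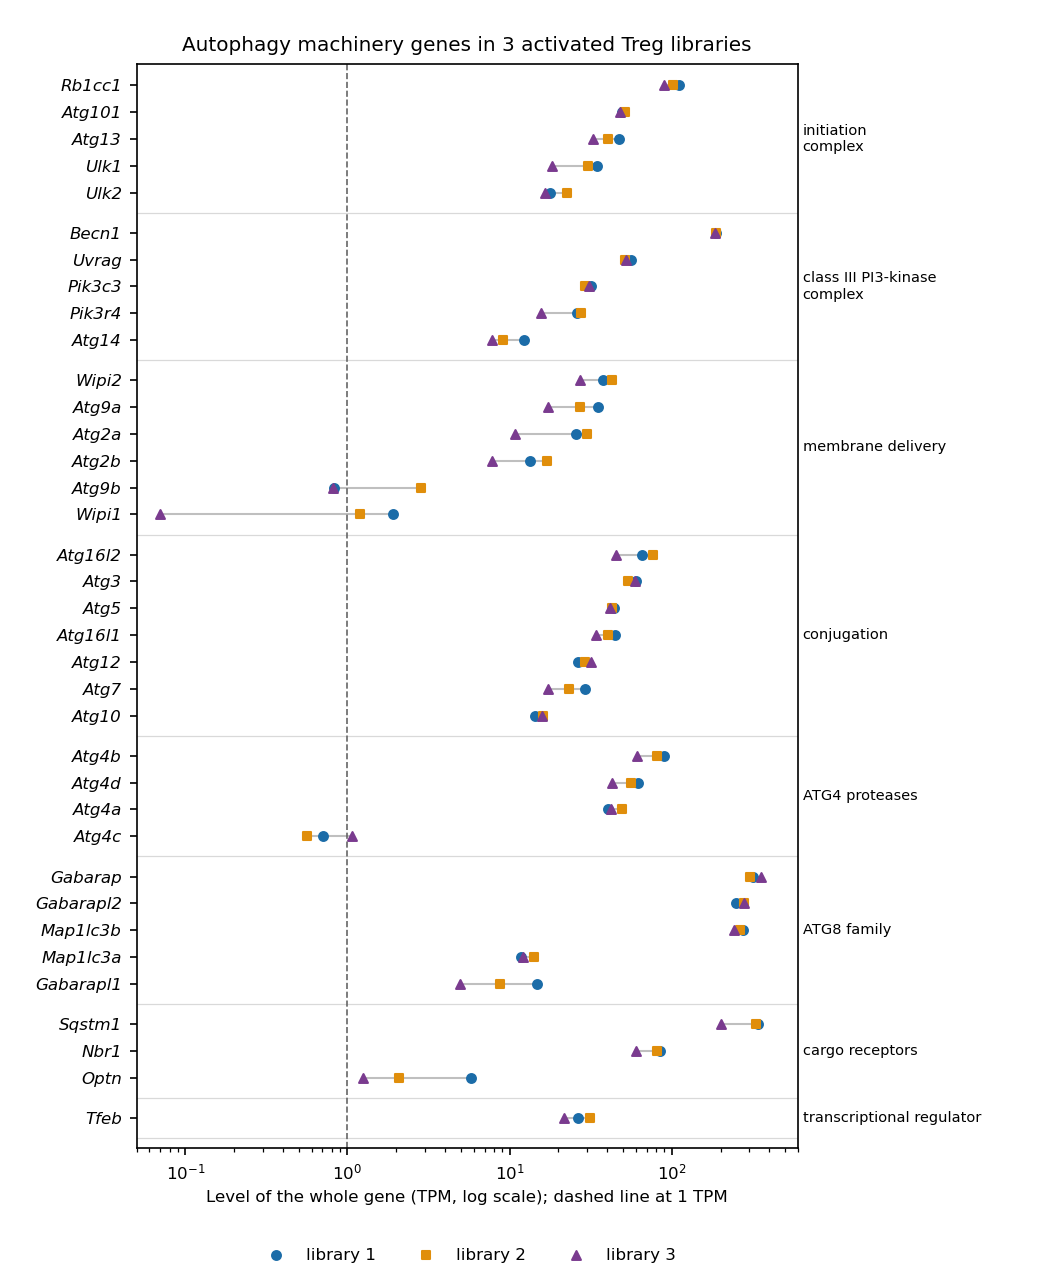
Level of each of the 36 genes in TPM on a log axis, grouped by role, with 1 symbol per library and a dashed line at 1 TPM. Atg9b, Wipi1 and Atg4c are the genes with a symbol left of the line, and Gabarap, Gabarapl2, Map1lc3b and Sqstm1 lie above 200 TPM in every library.

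All 5 genes of the initiation complex were detected, between 18.9 and 100.7 TPM on average. Rb1cc1, the scaffold FIP200, was the highest with 110.8, 101.4 and 89.8 TPM in libraries 1, 2 and 3. Atg13, the adaptor that binds it, had 47.1, 40.3 and 32.9 TPM, and its partner Atg101 had 49.0, 51.7 and 47.7 TPM. Both kinases were lower than their partners in each library. Ulk1 had 34.5, 30.2 and 18.3 TPM and Ulk2 17.6, 22.5 and 16.4 TPM. On whole-gene levels Ulk1 was above Ulk2 in each library, but the log2 ratio of 0.50 ± 0.40 (SD, n = 3) did not pass 2 SD. Ulk1 was lowest in library 3, with a chi-square of 463 (adjusted p = 6.70e-100, Benjamini-Hochberg over 17165 genes). Atg101 did not pass that test (adjusted p = 0.699), and its highest library exceeded its lowest by 1.04-fold.

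The class III PI3-kinase complex makes the lipid PI3P at the forming membrane. Its gene Becn1 had 188, 186 and 185 TPM, the smallest relative spread of the abundant members. The Becn1 transcripts, however, were mostly of classes other than protein coding (below). The catalytic subunit Pik3c3 (VPS34) had 31.7, 29.0 and 30.9 TPM and the regulatory subunit Pik3r4 (VPS15) 26.0, 27.4 and 15.6 TPM. Atg14 and Uvrag encode alternative subunits, of which ATG14 steers the complex to autophagosome formation and UVRAG acts largely on endosomes. Atg14 had 12.2, 9.04 and 7.75 TPM and Uvrag 55.7, 51.3 and 52.4 TPM. On whole-gene levels Atg14 was lower than Uvrag by a log2 ratio of -2.37 ± 0.25, but on coding transcripts alone the ratio was 0.53 ± 0.30 (SD, n = 3), within 2 SD of 0.

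Membrane delivery genes had a median of 17.4 TPM over 6 members, the lowest of the groups with several members on whole-gene levels. On coding transcripts the median was 14.3 TPM, and that of the ATG4 proteases was lower at 11.8 TPM. Atg2a and Atg2b encode lipid transfer proteins. Atg2a had 25.8, 29.8 and 10.9 TPM and Atg2b 13.3, 16.9 and 7.74 TPM, both lowest in library 3. Atg9a, the lipid scramblase of ATG9 vesicles, had 35.0, 27.1 and 17.4 TPM, and its relative Atg9b had 0.82, 2.85 and 0.81 TPM. Wipi2, a PI3P-binding protein that recruits ATG16L1, had 37.4, 42.6 and 27.3 TPM, and Wipi1 had 1.92, 1.2 and 0.07 TPM. In each of these families 1 gene carried most of the RNA. Atg9a exceeded Atg9b by 3.50 ± 0.73, Wipi2 exceeded Wipi1 by 4.25 ± 0.50 and Atg2a exceeded Atg2b by 0.71 ± 0.24 on the log2 scale (SD, n = 3). In CPM, reads scaled by library size, 5 of the 6 genes were lowest in library 3, against 41.5% of all tested genes. Atg9b, the exception, was lowest in library 1 in CPM but in library 3 in TPM. It had 35.7, 83.8 and 40.7 reads in libraries 1, 2 and 3. Wipi1 had 75, 44 and 5 reads in libraries 1, 2 and 3, and the last count has a 95% Poisson interval of 1.62 to 11.7 reads for counting error only.

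The conjugation genes attach ATG12 to ATG5 and lipid to ATG8 proteins, and all 7 were detected. Atg3, the E2-like enzyme for ATG8 proteins, had 60.4, 53.8 and 59.0 TPM. Atg7, the shared E1-like enzyme, had 29.0, 23.1 and 17.2 TPM, and Atg10, the E2-like enzyme for ATG12, had 14.3, 16.1 and 15.9 TPM. Atg7 was thus lower in library 3, while Atg10 did not pass the test between libraries (adjusted p = 0.479). Atg5, the ATG12 acceptor, had 44.3, 42.8 and 41.9 TPM and did not pass the test either (1.03-fold between the highest and lowest library in CPM, adjusted p = 0.592). Atg12 had 26.4, 29.2 and 31.7 TPM, the order opposite to that of Atg7. Atg16l1, whose protein places the conjugate on the membrane, had 44.4, 40.5 and 34.3 TPM, and its relative Atg16l2 had 65.2, 76.9 and 45.4 TPM. The log2 ratio of Atg16l1 to Atg16l2 was -0.62 ± 0.26 on whole genes and 0.57 ± 0.25 on coding transcripts (SD, n = 3), both past the spread and of opposite sign.

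The ATG4 proteases cut ATG8 tails and release lipid-bound ATG8. Atg4b, the main LC3 protease in mammals, had 89.0, 81.2 and 60.8 TPM. Atg4d had 61.8, 56.3 and 43.0 TPM, Atg4a had 40.4, 49.6 and 41.9 TPM, and Atg4c had 0.71, 0.56 and 1.06 TPM. Atg4b led the family on whole-gene levels in every library and Atg4c was close to the detection threshold. The log2 ratio of Atg4b to Atg4a was 0.78 ± 0.31 on whole genes and -0.73 ± 0.29 on coding transcripts (SD, n = 3). The log2 ratio of Atg4b to Atg4d was 0.51 ± 0.01 on whole genes and 1.5 ± 0.07 on coding transcripts. Atg4a shares 63.6% of the 50-base windows of its principal transcript with Atg4a-ps, which was assigned 2.58, 4.76 and 2.94 TPM, so the division of reads between these is uncertain.

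Among the cargo receptors Sqstm1, which encodes p62, had 341, 328 and 202 TPM. Nbr1, a related receptor, had 85.1, 80.8 and 60.3 TPM and Optn, the receptor optineurin, 5.76, 2.07 and 1.25 TPM. Of the Nbr1 level, 16.7, 8.78 and 16.0 TPM came from Nbr1-221, a noncoding transcript of 63 bases. It had only 4.43, 2.16 and 4.98 reads in libraries 1, 2 and 3, so its short length raises the whole-gene TPM. Sqstm1 exceeded Nbr1 by 1.91 ± 0.16 and Optn by 6.30 ± 0.57 on the log2 scale (SD, n = 3). On coding transcripts alone, which leave out Nbr1-221, Sqstm1 exceeded Nbr1 by 2.80 ± 0.19 (SD, n = 3). All 3 receptors were lowest in library 3, as were 41.5% of all tested genes in CPM. Sqstm1 had the largest chi-square of the members, at 1449. Optn had 274, 89 and 67 reads, 4.51-fold between the highest and the lowest library in CPM, reads scaled by the TMM library size.

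Tfeb, a transcription factor of lysosome and autophagy genes, had 26.5, 31.3 and 21.7 TPM. Its family binds the E-box CACGTG, and the longer GTCACGTG, which contains CACGTG, is the first part of the CLEAR element. Both were searched on both strands in RefSeq promoter windows of build GRCm38.p6, which matched 30 of the 36 members. CACGTG was found at 4 of these members (13.3%), namely Atg3, Atg5, Atg7 and Atg14, against 8.09% of 27025 genes, and GTCACGTG at 3 (10%) against 2.55%. For 29 of the 30 members a RefSeq start lay within 500 bases of the start of a principal M21 transcript. The exception was Atg7, whose window lies 28 kb inside the gene, so its match is counted but not shown. A match describes the sequence and is not a binding site. The other longer matches are shown in 30 bases on the gene's strand, with the motif in capitals, which for Atg14 is the reverse complement.

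Atg3, chr16:45158722-45158751, plus strand: ggcctccttttGTCACGTGtcctgggagag
Atg14, chr14:47568417-47568446, minus strand: aaacaaaatccCACGTGACtggccctgagc

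These genes did not share an order of libraries. Atg3 had 76.7, 68.5 and 79.7 CPM in libraries 1, 2 and 3, highest in library 3. Atg14 had 22.4, 18.5 and 15.9 CPM, lowest in library 3.

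The members differed widely in the kind of transcript behind their level. Transcript estimates were grouped by annotated class, where nonsense-mediated decay marks transcripts with a premature stop and retained intron those that keep intron sequence. Protein-coding transcripts held at least 50% of the TPM in every library for 23 of the 33 detected members, against 80.1% of detected protein-coding genes. The median coding share was 78.3% for these members, against 86.3%. In 6 of them it was under 25%, against 5.71% of detected protein-coding genes. The leading transcript was protein coding in 30 of 36 members, a retained intron in 3, a decay transcript in 2 and a processed transcript in 1. The shares of these classes over all genes were not computed.

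Becn1 was the clearest case. Its coding transcripts held 10.6 ± 1.7% of its TPM (SD, n = 3), or 6.83% of its reads. The decay transcript Becn1-201, at 80.8, 84.4 and 91.6 TPM, held 45.9% of the gene. The principal coding transcript Becn1-205 had 1.80, 1.70 and 0.84 TPM. Becn1-201 is annotated with 2123 bases and Becn1-205 with 4365, and the effect of this on the split was not tested. By whole-gene level Becn1 ranked 5 of 36 and by coding transcripts 19 of 36, with 19.8 TPM. Of the 50-base windows of Becn1-205, 45.7% also lie in a transcript of the opposite strand, and with strandedness not given in the sources used here those reads cannot be told apart.

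In Gabarapl2 the retained-intron transcript Gabarapl2-203 had 188, 212 and 212 TPM and the coding Gabarapl2-201 59.2, 68.3 and 66.9 TPM. The coding share was 24.0 ± 0.3% of TPM (SD, n = 3) and 42.4% of reads, since the coding transcript is longer. The other detected members under 25% were Atg4d, Uvrag, Atg4b and Map1lc3a. Their coding shares were 10.6 ± 0.9%, 11.7 ± 2.8%, 23.4 ± 1.8% and 24.9 ± 5.1% of TPM, in that order (SD, n = 3). By reads the shares were 32.5%, 25.1%, 49.4% and 31.2%. In Atg4d, retained-intron transcripts held 78.3% of TPM, and in Uvrag 42.6%.

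Other members were almost wholly coding. Map1lc3b had 98.7%, Sqstm1 95.3%, Atg3 98.4%, Atg5 98.7%, Atg14 98.2% and Tfeb 98.3% of TPM in coding transcripts. On coding transcripts alone the leading members were Sqstm1 with 277 ± 73.7 TPM, Map1lc3b with 257 ± 16.4 TPM and Gabarap with 214 ± 19.3 TPM (SD, n = 3). These were followed by Rb1cc1 with 84.2 TPM and Gabarapl2 with 64.8 TPM. The principal Rb1cc1 transcript, of 4764 coding bases, had a mean of only 0.63 TPM. The leading coding transcript of that gene, of 2620 coding bases, had 43.4 TPM. Gabarap itself was split between Gabarap-202, of 318 coding bases, with 171 TPM, the retained intron Gabarap-204 with 109.9 TPM and the principal Gabarap-201 with 42.5 TPM. In Map1lc3b, the principal transcript, of 375 coding bases, held 40.4% of TPM. Other Map1lc3b transcripts, of 480 and 198 coding bases, held 32.7% and 23.7%. In Atg16l1, Atg16l1-202 held 44.1% and the longer principal Atg16l1-201 held 21.5% of TPM.

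**Figure D2:**
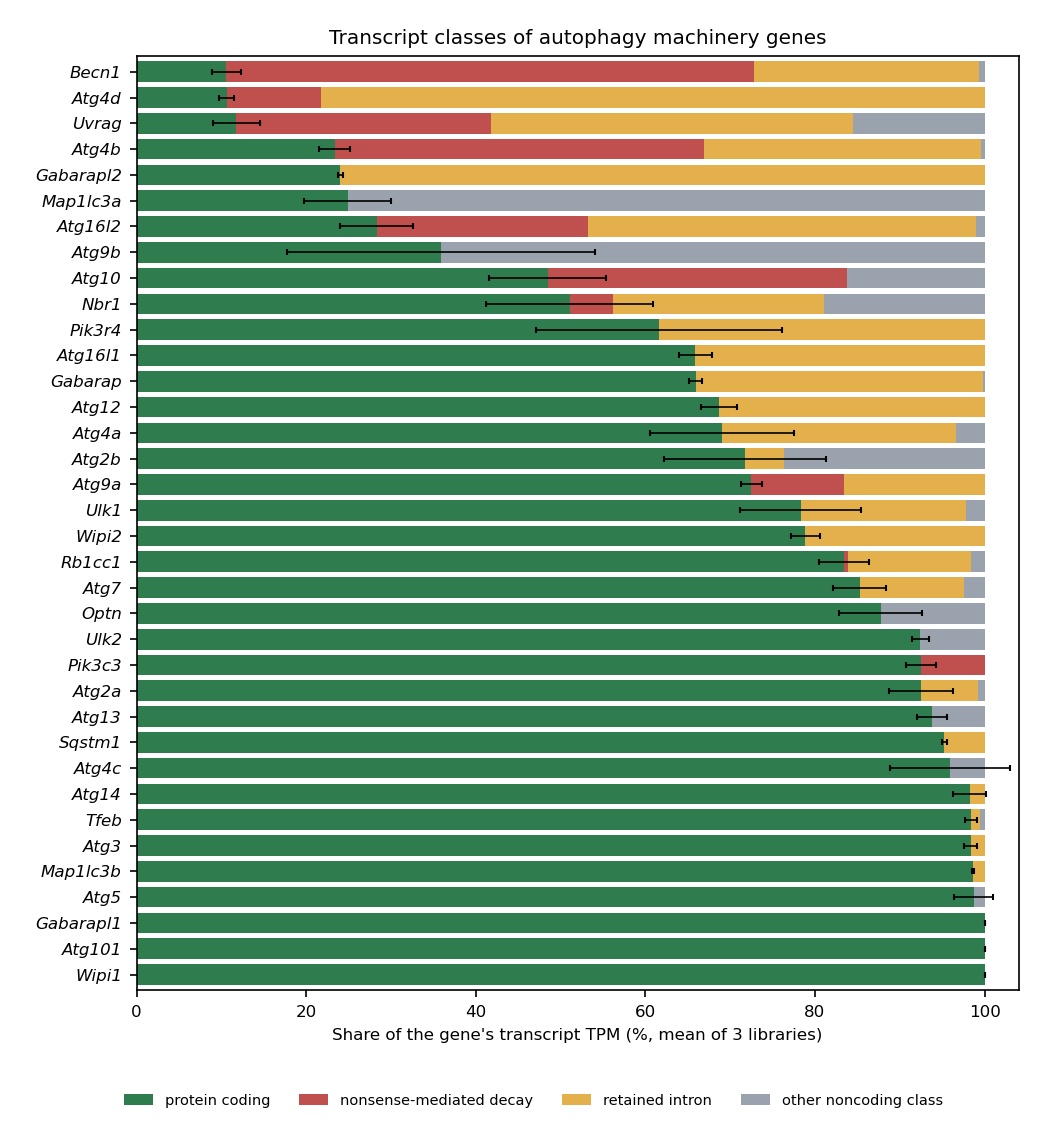
Share of each gene's transcript TPM in protein-coding, nonsense-mediated decay and retained-intron transcripts and in all remaining classes. Bars are means of 3 libraries, with the SD of the coding share as error bars. Becn1, Atg4d and Uvrag have the smallest coding shares, and Wipi1, Atg101 and Gabarapl1 the largest at 100%.

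Of 15 ratios between related members, 12 passed the spread on whole-gene levels and 12 on coding transcripts. The ratios of Ulk1 to Ulk2, Gabarap to Gabarapl2 and Gabarap to Map1lc3b did not pass on whole genes. On coding transcripts those of Ulk1 to Ulk2, Gabarap to Map1lc3b and Atg14 to Uvrag did not. Gabarap exceeded Gabarapl2 by 1.71 ± 0.16 on coding transcripts (SD, n = 3). The sign turned between the scales for Atg16l1 to Atg16l2, Atg4b to Atg4a, Gabarap to Map1lc3b and Atg14 to Uvrag. The mean direction of the others was the same on both, although Ulk1 to Ulk2 on coding transcripts was -0.18 in library 3.

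**Figure D3:**
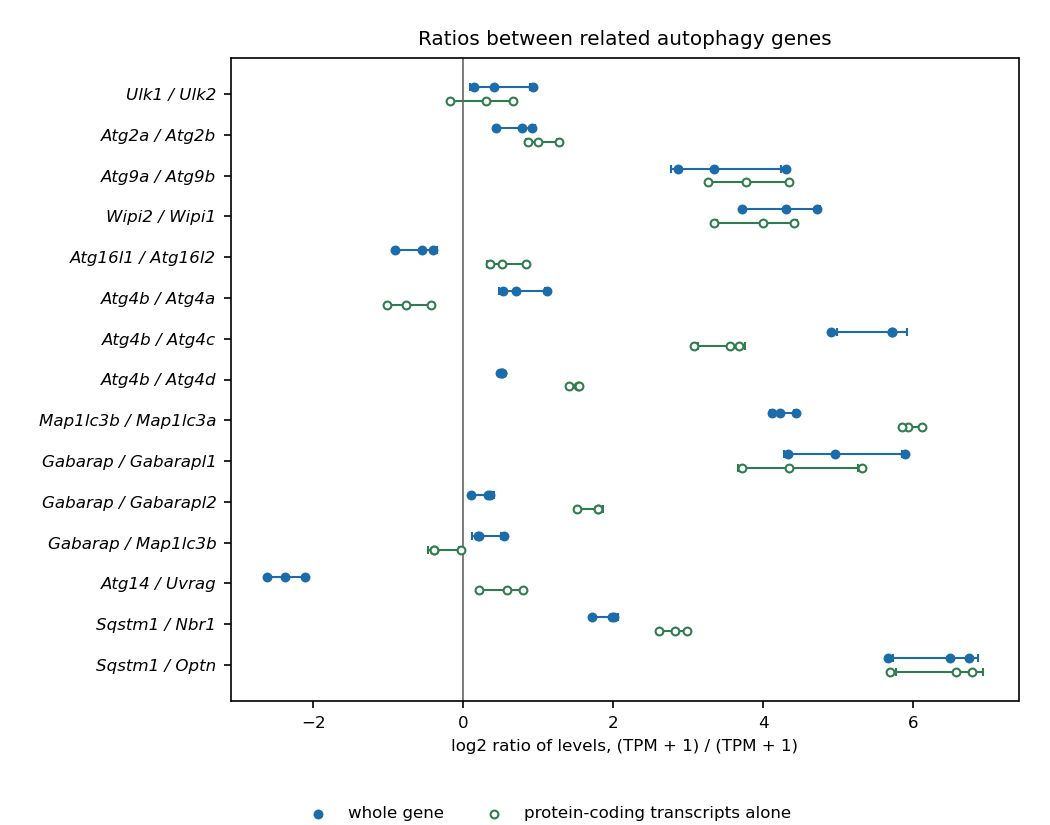
Log2 ratio of levels, (TPM + 1)/(TPM + 1), for 15 pairs of related genes, with 1 point per library and bars of 1 SD around the mean, for whole genes (filled) and protein-coding transcripts alone (open). The filled and open points lie on opposite sides of 0 for Atg16l1 to Atg16l2, Atg4b to Atg4a, Gabarap to Map1lc3b and Atg14 to Uvrag.

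Between libraries, 31 of 36 members differed beyond counting error in the chi-square test, against 79.8% of 17165 genes with 10 or more reads. The test compares these libraries, not conditions. Atg101, Uvrag, Atg10, Atg5 and Map1lc3a did not pass. The size of the differences was like that of other genes. Over the 33 members with 100 or more reads, the median ratio of the highest to the lowest library was 1.35 in CPM, against 1.34 over all such genes, and 10 of 33 reached 1.5-fold, against 32.2%. These 10 were Ulk1, Pik3r4, Atg2a, Atg2b, Atg9a, Wipi2, Gabarapl1, Sqstm1, Nbr1 and Optn, and all 10 were lowest in library 3. The share lowest in library 3 among all genes at 1.5-fold was not computed. Over all tested genes, of any fold, it was 41.5%. Without library 3, 2 of 33 members, Gabarapl1 and Optn, reached 1.5-fold, against 11.99% of all such genes. At 2-fold there were 4 of 33, against 11.0% of such genes, namely Optn at 4.51, Gabarapl1 at 2.77, Atg2a at 2.71 and Atg2b at 2.43.

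In CPM, library 3 had the lowest value for 23 of 36 members, against 41.5% of all tested genes. Library 1 had it for 7 against 30.2%, and library 2 for 6 against 28.3%. The highest value was in library 1 for 16 members against 32.8%, in library 2 for 12 against 32.7%, and in library 3 for 8 against 34.5%. The median difference of library 3 from the mean of the other libraries was -0.32 for members and -0.06 for all tested genes on the log2(CPM + 0.5) scale. Members highest in library 3 in CPM included Gabarap, Gabarapl2, Becn1, Atg12 and Atg3, so the whole list did not shift on that scale. In TPM, Gabarap and Atg12 were also highest there, while Gabarapl2 was highest in library 2 and Becn1 and Atg3 in library 1. Optn, Gabarapl1 and Wipi1 were highest in library 1, which also had the most erythroid and monocyte marker RNA, as given above. Their part in these values was not tested.

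Library 3 was also lower in long transcripts. The Spearman rho between its difference and transcript length was -0.38 over the 36 members and -0.27 over all 17165 tested genes. Members and genes share the same libraries, so these are descriptions. The 12 members with the longest transcripts, from 2765 to 5954 bases, had a median library 3 difference of -0.40, and 9 were lowest in it. The 12 with the shortest, from 890.1 to 1796 bases, had a median of -0.05, and 5 were lowest in it. Shares of all genes in these length ranges were not computed. With the length trend of all genes removed, 21 of 36 members were lowest in library 3, against 37.1% of all tested genes, and 10 in place of 16 were highest in library 1, against 28.4%.

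**Figure D4:**
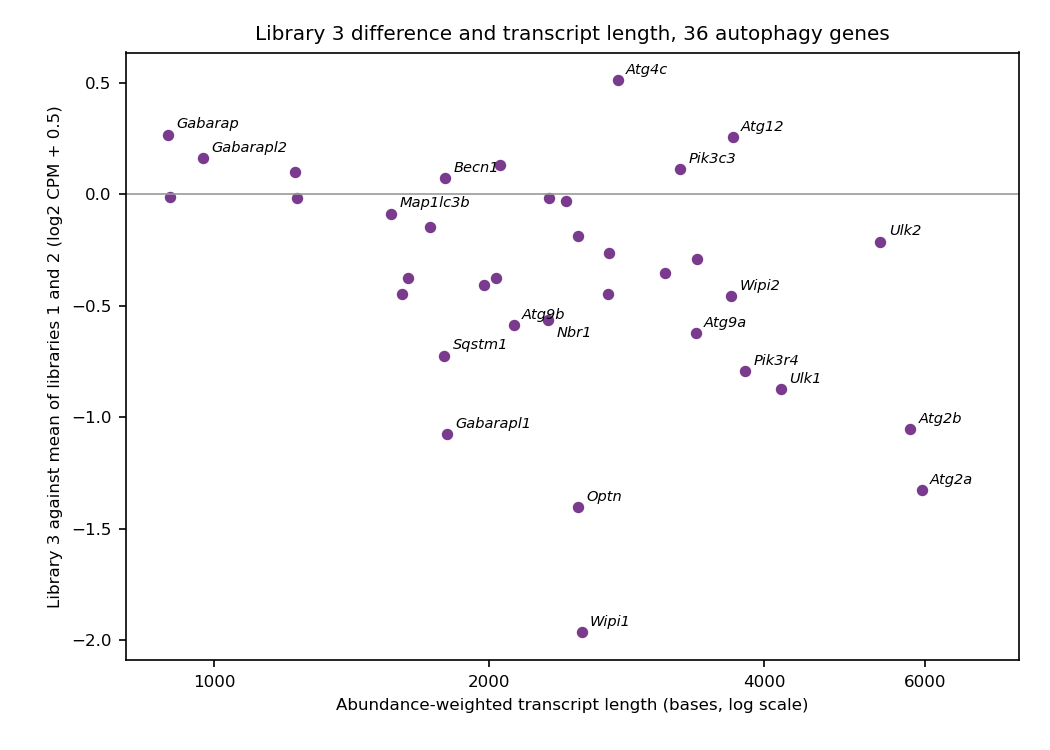
Difference of library 3 from the mean of libraries 1 and 2 in log2(CPM + 0.5) for each of the 36 genes against its abundance-weighted transcript length in bases on a log axis. Atg2a, Atg2b and Ulk1 combine long transcripts with low values in library 3, while Gabarap and Gabarapl2 are short and higher there, and Wipi1 (5 reads in library 3) lies lowest.

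A further list of 39 autophagy genes, of other receptors, regulators and fusion factors, had 36 detected members and a median of 44.8 TPM. By whole-gene level the highest were the mitophagy receptor Bnip3l with 401 ± 33.1 TPM, of which coding transcripts held 18.2%, the late endosome GTPase Rab7 with 259 ± 7.60 TPM and the prohibitin Phb2 with 215 ± 10.6 TPM (SD, n = 3). They were followed by the fusion SNARE Vamp8 with 204 ± 10.8 TPM and the receptor Tax1bp1 with 191 ± 9.49 TPM. The lowest were Mitf, a relative of Tfeb, with 0.69 TPM, Wdfy3 with 0.97 TPM and Rubcnl with 1.38 TPM. In the chi-square test 36 of 39 differed between libraries, against 79.8% of all tested genes, and 19 of 39 were lowest in library 3, against 41.5%. The median fold was 1.30. Coding transcripts held at least 50% of TPM in every library for 34 of these 39 genes and for 25 of the 36 machinery genes. The share was 80.1% over detected protein-coding genes, while both of these lists also hold undetected ones.

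Sequence shared with other genes was looked for in a principal transcript of each member, and other transcripts were not checked. That transcript held little of the TPM for Becn1 (0.78%), Rb1cc1 (0.64%) and Nbr1 (0.57%). Of the 36 principal transcripts, 25 shared no 50-base window with another gene and 5 shared 5% or more. Beside Atg4a these were Atg9a with 47.8%, Gabarapl2 with 17.0%, Map1lc3b with 13.4% and Rb1cc1 with 8.48%. Map1lc3b shares its windows mostly with the processed pseudogene Gm6055, assigned 10.5, 21.3 and 27.0 TPM. On the opposite strand 6 members shared 5% or more, namely Becn1, Gabarapl1, Atg4d, Atg4a, Atg9b and Atg14. The second deposited gene table counted far fewer reads for some ATG8 genes, 0.80% of the larger table's reads for Gabarapl2 and 1.44% for Map1lc3b, against a median of 51.1% over members. Over 1751 genes with 4000 or more reads the median was 26.2%, and 118 of them were under 2%. In that table, which is not divided by length, the log2 ratio of Map1lc3b to Map1lc3a was 0.27 ± 0.08, against 4.25 above, and that of Sqstm1 to Nbr1 was 0.33 ± 0.07, against 1.91. The ratio of Gabarap to Gabarapl2 was 4.04 ± 0.01 there and that of Gabarap to Map1lc3b 2.72 ± 0.08 (SD, n = 3). The cause was not tested, and the sizes of these ratios rest on the larger table.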

How the data were processed

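Each library had 3 deposited tables. Expected counts as deposited are estimated reads per gene or transcript on mm10 and GENCODE M21, per the file headers and library notes, in RSEM's column layout. TPM and FPKM as deposited were scaled by the authors for length and total. The second gene table holds whole-number read counts as deposited for 22457 genes and served as an alternative. Not given in the sources used here are kit, strand setting, aligner and quantifier. Spike-in and transfer RNA entries, 0.166% to 0.229% of reads, were left out.

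A chi-square test with 2 degrees of freedom compared rounded expected counts with their share of TMM-scaled totals from edgeR 4.0.16. Genes averaging at least 10 reads entered, and Benjamini-Hochberg adjustment was at 0.05. No quasi-likelihood test could be fitted, since 1 group of technical replicates has no contrast. P-values measure departure from counting error between libraries, which may be technical. They depend on read number and do not measure the size of the spread. Ratios used a pseudocount of 1 TPM and understate differences of low genes. On Poisson counts simulated for 17165 genes, the chi-square test found 48% of genes simulated at 1.2-fold and 60% of those at 1.5-fold. It found 92% of those at 2-fold and each of those at 4-fold. Of 16965 genes left as they were, 5 were called. The simulated counts held only the counting error that the test assumes. These 5 calls therefore do not measure false calls in the sequenced libraries. Intervals cover counting error only.

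The members and gene lists were chosen with earlier results of these data known. All members may be named; of the further autophagy list the 5 highest and 3 lowest were named. Alternatives were thresholds, FPKM, posterior mean estimates, DESeq2 1.42.0 size factors, filters, the other table, coding transcripts and each library left out. Software was Python 3.11.15 (pandas 2.3.3, scipy 1.17.1, numpy 2.4.6) and R 4.3.3.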

Additional observations from a re-analysis of the deposited data

How the results depend on the processing

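Counts of detected members (31 to 35) and of members with mainly coding transcripts (17 to 28) kept within 1.5 times the values reported. So did members differing between libraries (21 to 31) and members lowest in library 3 (20 to 24). The shares of all genes moved with the setting as well. With library 3 left out, 21 of 36 members differed, against 54.3% of all genes, which was 79.8% as reported. The share of all genes lowest in library 3 was 31.0% to 46.1%, and that of detected protein-coding genes 39.8% to 51.1%. The median member level was 21.3 in FPKM and 19.9 TPM on coding transcripts alone, and leaving out a library gave 31.8 to 36.2 TPM, the last without library 3. Members at 1.5-fold or more, 10 as reported, numbered 6 of 30 in the other gene table (20.6% of all genes there) and 4 of 33 at 2-fold (11.0%). With a library left out they numbered 2 to 9, the 2 being without library 3, against 11.99% to 23.2% of all genes. Members highest in library 1 numbered 10 with the length trend removed. Members with mainly coding transcripts, 25 as reported, numbered 18 when only principal transcripts were counted. The sign of a ratio turned on coding transcripts, chosen after seeing the data, for Atg16l1 to Atg16l2 (0.57), Atg4b to Atg4a (-0.73), Gabarap to Map1lc3b (-0.26) and Atg14 to Uvrag (0.53), and in the other table, which is not divided by length, for Atg4b to Atg4d (-0.17). The coding transcript scale by construction leaves out transcripts of every other class, and other causes were not tested. Among the single ratios, 107 values kept direction and side of the threshold, though not always size (the ratio of Map1lc3b to Map1lc3a was 0.27 in the other table), 5 were stronger and 3 weaker. No paired analysis was possible because there was 1 group. Depth limits Wipi1, Atg9b and Atg4c, with under 100 reads per library.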
